A study of Mus musculus with 16 samples.

Results

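Crem, Sik1, Per1, Pde4b, Pde4d and Pde3b were followed in natural killer (NK) cells of lung and lymph node. They are genes that cyclic AMP (cAMP) switches on or whose enzymes break cAMP down. These 6 of the 49671 genes counted were taken by symbol, 1 row each, and the group was chosen by measured values: Crem and Sik1 stood far higher in lung than in lymph node. The levels in lung and lymph node are therefore given for all 6 as a description, without a test. The effect of the treatment was no part of that choice and was tested. All 6 were among the 13940 genes with enough counts to be tested.

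Cyclic AMP is made by adenylyl cyclases when a hormone or mediator binds a Gs-coupled receptor. It releases the catalytic subunits of protein kinase A, which phosphorylate the transcription factor CREB, and CREB with its CRTC coactivators switches on genes that carry a cAMP response element. Several of those genes limit the signal: Crem encodes a CREB relative with repressor forms, Sik1 a kinase that keeps CRTC coactivators out of the nucleus, and phosphodiesterases hydrolyse cAMP. In NK cells, agents that raise cAMP are known to dampen killing and cytokine release.

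Bulk RNA was sequenced with Smart-seq2 from 5000 to 10000 sorted NK cells a sample (live CD45+ CD3- NKp46+ DX5+). The cells came from FVB/N mice of the genotype Cdh1F/F;Trp53F/F;Foxp3GFP-DTR with an orthotopically transplanted KEP mammary tumour of 100 mm2. In these mice the receptor for diphtheria toxin (DT) is expressed from the Foxp3 gene, which marks regulatory T cells. There were 4 groups of 4 biological replicates: lung from mice given 25 ug DT at T = 0 and T = 7 (lung DT), lung from mice given PBS at the same times (lung PBS), and axillary tumour-draining lymph nodes (LN) from mice given DT (LN DT) or PBS (LN PBS). The labels do not give the unit of T, and the titles call the PBS groups untreated. All groups share the genotype and the tumour, so no group without a tumour or without the DT receptor was compared. Lungs were digested with Liberase and their red cells were lysed, while no digestion is described for LN. Tissue and digestion therefore cannot be told apart. In bulk samples fewer cells with a transcript and less of it per cell cannot be told apart either.

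Total counts ran between 3929560 and 10744934 per library. NK markers were abundant in every group, with a summed level of 8 genes between 17463 and 54288 counts per 1000000 (CPM). The LN DT and lung DT libraries numbered 1 stood apart from the rest on the second principal component, at 108 and 152. Results on the members that rest on them are given with and without them. These libraries also had the highest NK marker sums, and without them the highest was 36763 CPM. Mitochondrial counts took 3.11% to 4.40% in lung DT and 0.951% to 2.57% in lung PBS, without overlap. The shares were 1.24% to 4.93% in LN DT and 1.05% to 1.68% in LN PBS. No library held more than 9 counts of Foxp3. Neutrophil markers (7 genes) summed to 8.78 to 289 CPM in lung DT and 16.5 to 103 in lung PBS, against 0.660 to 5.78 in LN DT and 0.485 to 12.4 in LN PBS. Mmp9 was at 0 in all lung DT libraries, and Ly6g and Retnlg were at 0 in all LN libraries. T cell markers (7 genes, none at 0 in a whole group) ran the other way, at 60.6 to 430 CPM in lung DT and 39.4 to 79.1 in lung PBS, against 278 to 491 in LN DT and 356 to 440 in LN PBS. Without the library numbered 1 the lung DT range was 60.6 to 91.9 CPM. Cd3d and Cd3g made up most of the T cell sums in LN, averaging 148 and 138 CPM in LN DT and 126 and 210 in LN PBS. They averaged 48.9 and 78.8 CPM in lung DT and 12.3 and 26.1 in lung PBS. Cd3e, Trac and Cd5 also averaged lower in lung. Cd4 and Cd8a did so in DT mice only. In PBS mice Cd4 and Cd8a averaged 4.38 and 1.66 CPM in lung, against 3.59 and 0.620 in LN. Macrophage and monocyte markers (8 genes, none at 0 in a whole group) summed to 401 to 3823 CPM in lung DT, 595 to 2459 in lung PBS, 812 to 1467 in LN DT and 588 to 1012 in LN PBS. The genes behind these sums differed. Ccr2 made up most of the LN sums, averaging 946 CPM in LN DT and 661 in LN PBS, against 236 in lung DT and 288 in lung PBS. Lyz2 averaged 1773 CPM in lung DT and 648 in lung PBS, against 128 in LN DT and 116 in LN PBS. Csf1r, Adgre1, Cd68, Mrc1 and Fcgr1 also averaged higher in lung, and Marco, at most 4.68 CPM in a group mean, lower. The part of these cells in the results below was not tested.

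Promoters of the members are shown because these genes stood high together in lung, and CREB reads its target genes through the cAMP response element. The RefSeq promoter table (GRCm38.p6) held entries for 3 of the 6 members: Pde4b with 4 starts, Per1 with 2 and Pde4d with 1. Crem, Sik1 and Pde3b had no entry. The 250 bases before each start were searched on both strands for the full element, TGACGTCA, and for its core. The core reads TGACG on either strand and is contained in the full element. The full element was in 0 of the 7 windows, and 1.55% of all 32851 promoter windows of the same length held it. The core was in 3 of 7, against 17.8% of all windows. A match describes these letters and no more. The 3 windows with a core, 5′ to 3′ on the + strand with the core in capitals (in Pde4b it lies on the − strand and so reads CGTCA as printed), are Pde4b chr4:102421305-102421554 (core at base -34 from the start), Per1 chr11:69098699-69098948 (base -246) and Per1 chr11:69099902-69100151 (base -132).
Pde4b: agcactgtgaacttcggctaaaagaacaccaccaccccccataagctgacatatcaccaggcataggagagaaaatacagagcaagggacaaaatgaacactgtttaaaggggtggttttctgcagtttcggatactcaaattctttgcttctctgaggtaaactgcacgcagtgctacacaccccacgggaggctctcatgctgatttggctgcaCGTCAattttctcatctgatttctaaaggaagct
Per1, upstream start: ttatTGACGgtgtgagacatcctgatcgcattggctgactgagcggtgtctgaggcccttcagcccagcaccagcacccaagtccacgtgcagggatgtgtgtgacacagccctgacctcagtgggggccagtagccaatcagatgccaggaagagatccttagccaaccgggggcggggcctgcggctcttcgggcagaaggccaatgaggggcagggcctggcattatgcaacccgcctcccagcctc
Per1, downstream start: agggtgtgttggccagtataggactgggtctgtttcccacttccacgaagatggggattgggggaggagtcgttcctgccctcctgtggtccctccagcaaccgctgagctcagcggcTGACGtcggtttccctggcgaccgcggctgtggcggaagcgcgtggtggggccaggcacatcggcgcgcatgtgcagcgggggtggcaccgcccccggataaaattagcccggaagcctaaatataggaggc

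Crem (ENSMUSG00000063889, GRCm38 chromosome 18, 3266048 to 3337748) was the highest of the members in lung per kb of exon. It stood at 805, 799.7, 977 and 959 CPM in lung DT and at 738, 961, 1847 and 1574 CPM in lung PBS. The LN libraries had 86.5, 57.2, 69.7 and 83.8 CPM with DT and 73.3, 44.0, 29.6 and 36.3 CPM with PBS. Every lung library was above every LN library of the same treatment, and the lowest lung PBS value was 10.1 times the highest LN PBS value. The fitted lung to LN ratio was 11.9 in DT mice and 27.9 in PBS mice, on the log2 scale 3.57 and 4.80. The exons of Crem overlap Gm6225 on the other strand over 472 bases, 8.01% of the exon length. Gm6225 had 368 counts over all 16 libraries, and reads from this overlap cannot be assigned to a strand by the Smart-seq2 protocol.

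Sik1 (ENSMUSG00000024042, chromosome 17, 31844248 to 31855792) encodes a salt-inducible kinase that is itself induced by cAMP. It had 147, 159, 110 and 56.5 CPM in lung DT and 78.5, 119, 88.4 and 67.4 CPM in lung PBS. In LN it had 4.45, 3.04, 4.81 and 1.21 CPM with DT and 2.21, 2.54, 1.73 and 0.452 CPM with PBS. Every LN library was under 5 CPM, and every lung library was more than 10 times higher. Its fitted ratio of lung to LN was the largest of the 6 members, 35.1 in DT mice (log2 5.13) and 50.5 in PBS mice (log2 5.66).

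Per1 (ENSMUSG00000020893, chromosome 11, 69095217 to 69109960), a core repressor of the circadian clock and a textbook CREB target, varied most within a group. It had 16.2, 261, 149 and 175 CPM in lung DT and 67.8, 107, 84.6 and 73.2 CPM in lung PBS. In LN it had 5.48, 22.4, 36.3 and 19.3 CPM with DT and 43.6, 31.0, 14.4 and 29.5 CPM with PBS. The lowest value of each DT group was that of the library numbered 1, and the highest lung DT value was 16.1 times the lowest. The lung to LN difference was 2.84 on the log2 scale in DT mice, where the groups overlapped through lung DT library 1, and 1.49 in PBS mice, where they did not.

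Pde4b (ENSMUSG00000028525, chromosome 4, 102087543 to 102607259) encodes a cAMP-specific phosphodiesterase of immune cells. It had 493, 419, 423 and 624 CPM in lung DT and 364, 384, 381 and 330 CPM in lung PBS. In LN it had 117, 100.5, 99.4 and 116 CPM with DT and 161, 95.7, 125 and 90.3 CPM with PBS. The lung libraries lay above the LN libraries without overlap, by 2.18 on the log2 scale in DT mice and 1.63 in PBS mice.

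Pde4d (ENSMUSG00000021699, chromosome 13, 108449948 to 109953461), of the same subfamily, had the lowest mean per kb of the members in every group. It had 6.31, 17.9, 17.9 and 7.20 CPM in lung DT and 15.2, 13.6, 20.7 and 7.94 CPM in lung PBS, against 5.48, 4.36, 4.45 and 3.85 CPM in LN DT and 3.47, 1.58, 4.71 and 4.75 CPM in LN PBS. Lung DT libraries 1 and 4 came close to the LN DT values without meeting them. The log2 difference between lung and LN was 1.44 in DT mice and 1.98 in PBS mice.

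Pde3b (ENSMUSG00000030671, chromosome 7, 114415281 to 114539251), a phosphodiesterase that cyclic GMP inhibits, differed least between the tissues. It had 206, 131, 111 and 127 CPM in lung DT and 108, 171, 114 and 105 CPM in lung PBS, against 127, 51.9, 57.9 and 70.0 CPM in LN DT and 47.0, 68.3, 42.3 and 64.1 CPM in LN PBS. LN DT library 1 lay among the lung values, so the DT groups overlapped. The log2 difference was 0.91 in DT mice and 1.17 in PBS mice.

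**Figure D1:**
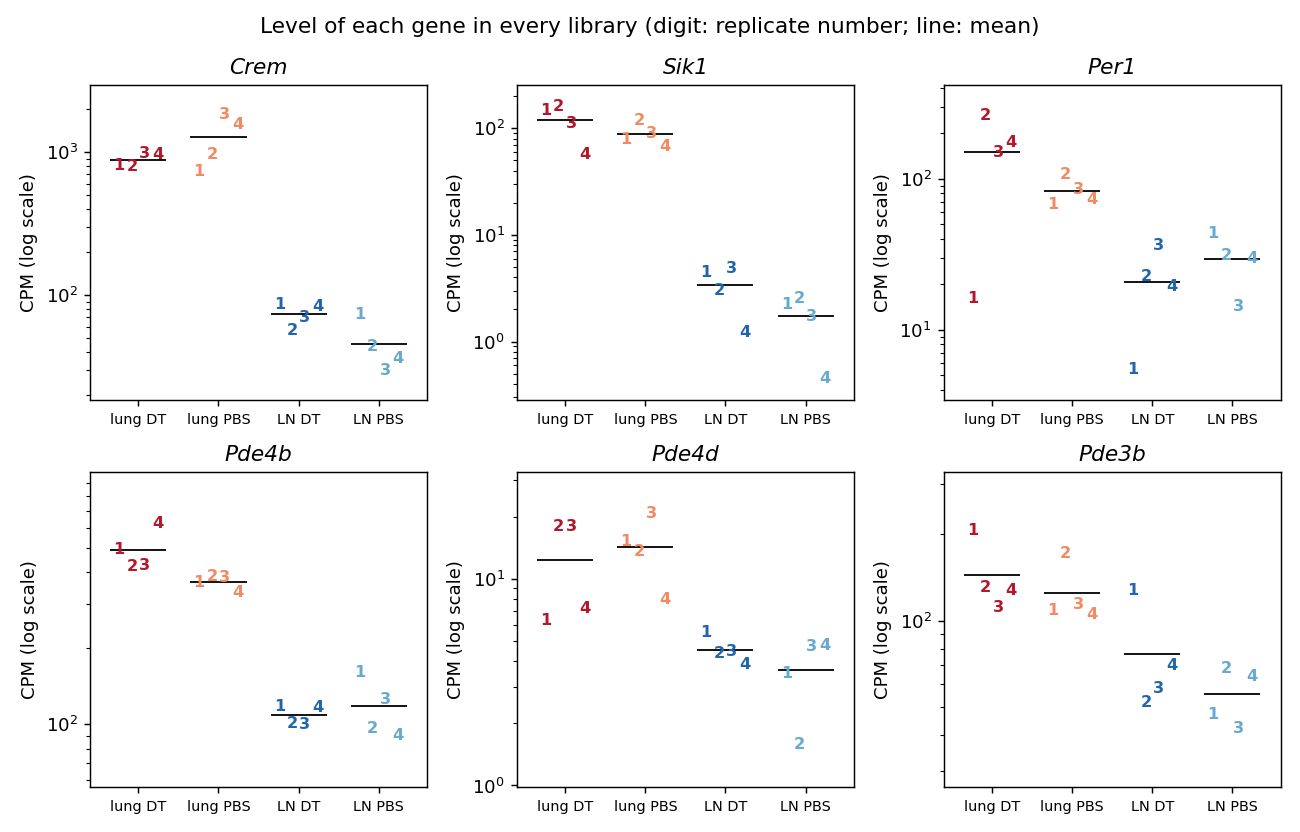
CPM of each member (log axis) in every library of lung DT, lung PBS, LN DT and LN PBS; digits are replicate numbers and lines are group means, n = 4. All lung libraries of Crem, Sik1 and Pde4b lie above all LN libraries, while Per1 of the lung DT library numbered 1, at 16.2 CPM, lies among the LN values.

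In PBS mice all 6 members were higher in every lung library than in every LN library, where 9.25% of all tested genes were. In DT mice this held for 4 of 6, against 5.57% of all tested genes, with Per1 and Pde3b the exceptions. Without the DT libraries numbered 1 it held for 6 of 6, against 14.1%. The choice of the members used this contrast, so nothing is read from these counts.

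Per kb of exon, the order of the members differed between the tissues. Crem led at 150 ± 16.3 CPM per kb in lung DT and 217 ± 87.8 in lung PBS, ahead of Pde4b at 46.4 ± 9.05 in lung DT and 34.6 ± 2.32 in lung PBS (SD, n = 4). In LN DT, Crem with 12.6 ± 2.30 and Pde4b with 10.2 ± 0.908 CPM per kb differed by about their spread. In LN PBS, Pde4b with 11.2 ± 3.06 and Crem with 7.77 ± 3.27 CPM per kb did not differ beyond it. Sik1 per kb was above Pde3b in lung, at 23.0 ± 8.99 against 15.8 ± 4.67 CPM per kb in lung DT and 17.2 ± 4.32 against 13.7 ± 3.42 in lung PBS, both within the spread. It was far below Pde3b in LN, at 0.658 ± 0.319 against 8.42 ± 3.78 CPM per kb in LN DT and 0.338 ± 0.179 against 6.08 ± 1.40 in LN PBS. Pde4d stayed at or under 1.20 CPM per kb in every group mean. At 0.378 ± 0.0570 CPM per kb in LN DT and 0.302 ± 0.124 in LN PBS, it did not differ from Sik1 beyond the spread.

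Among all 16 cAMP-hydrolysing phosphodiesterases, Pde4b, Pde7a and Pde3b held most of the summed level per kb in each group. Pde4b made up 46.2% of it in lung DT and 45.0% in lung PBS, against 21.6% in LN DT and 30.9% in LN PBS. Pde7a, which encodes another cAMP-specific enzyme, had 20.8% in lung DT and 21.4% in lung PBS, against 38.7% in LN DT, where it ranked first, and 30.0% in LN PBS. Pde3b kept between 15.7% and 17.8% in all 4 groups. The summed level was 100.3 CPM per kb in lung DT, 76.8 in lung PBS, 47.4 in LN DT and 36.2 in LN PBS. Exon lengths were those of all annotated transcripts merged, so these shares assume that the transcripts of each gene cover its exons alike.

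**Figure D2:**
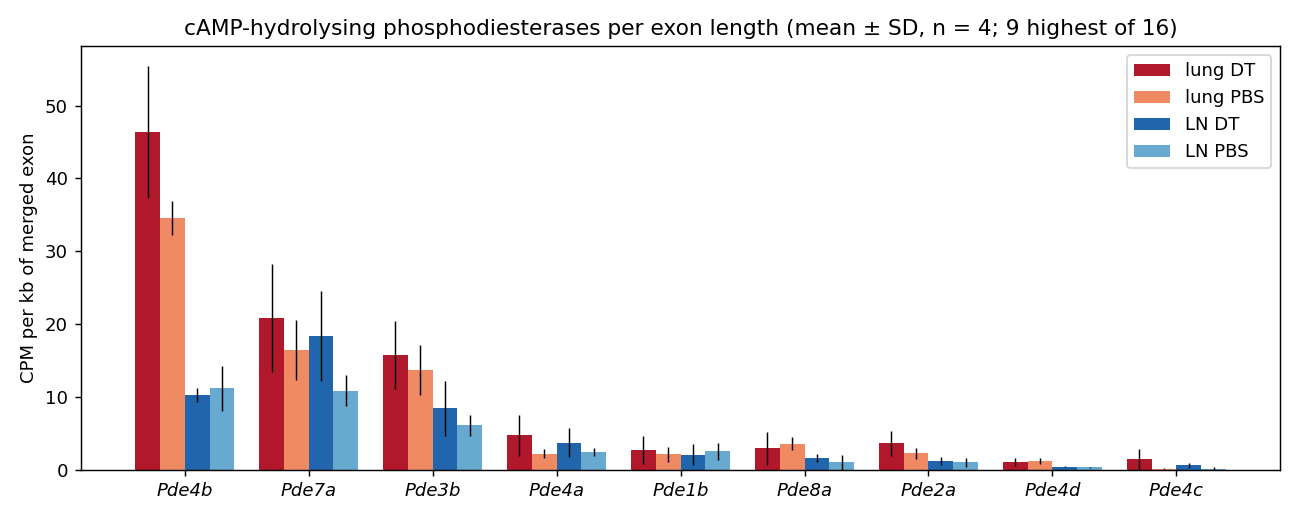
Mean CPM per kb of merged exon with SD (n = 4) of the 9 highest of 16 cAMP-hydrolysing phosphodiesterases, bars for lung DT, lung PBS, LN DT and LN PBS. Pde4b reaches 46.4 in lung DT and 34.6 in lung PBS and stays near 10.2 and 11.2 in the LN groups.

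What DT changed was asked in each tissue. No member passed the test in LN, where 0.0646% of all tested genes did (edgeR quasi-likelihood test, Benjamini-Hochberg adjusted over 13940 genes, threshold 0.05). None passed in lung either, where 0.108% of genes did. DESeq2 called 0 members in each comparison too. At an unadjusted p under 0.05 stood 1 of the 6 in LN, against 11.8% of all tested genes, and 0 in lung, against 14.7%. The median member difference was 0.39 in LN and 0.32 in lung on the log2 scale, beside 0.08 and 0.09 over all tested genes.

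Markers of other cell types also differed between DT and PBS libraries. Plasma cell markers (5 genes) summed to 559 to 1222 CPM in LN DT and 245 to 321 CPM in LN PBS, without overlap. Among them Jchain, the joining chain of secreted antibodies, averaged 201 ± 109 CPM in LN DT and 0.0613 ± 0.0708 CPM in LN PBS (SD, n = 4). Ighg1 averaged 301 CPM in LN DT and 0.714 in LN PBS, and Mzb1 34.3 and 4.91. Xbp1, which made up most of the LN PBS sums, averaged 291 ± 93.6 CPM in LN DT and 259 ± 36.8 in LN PBS, within the spread. Sdc1, near the floor, went the other way, at 0.449 CPM in LN DT and 0.744 in LN PBS. B cell markers (6 genes) summed to 239 to 1372 CPM in LN DT and 139 to 259 CPM in LN PBS, with overlap. Dendritic cell markers (6 genes) summed to 108 to 179 CPM in lung DT and 51.6 to 81.9 CPM in lung PBS, without overlap, and Clec9a was at 0 in all lung PBS libraries. Most of these lung sums came from Itgax, averaging 69.6 CPM in lung DT and 26.5 in lung PBS, and Zbtb46, averaging 63.8 and 40.2. Siglech, Flt3, Xcr1 and Clec9a averaged at most 2.10 CPM in either lung group, so the difference rests on Itgax and Zbtb46. No other marker of these lists was at 0 throughout these groups. In the other tissue these sums overlapped: 184 to 274 CPM in lung DT and 222 to 351 CPM in lung PBS for plasma cells, 106 to 2267 and 100.2 to 3074 CPM for B cells in the same groups, and 50.7 to 296 CPM in LN DT and 49.9 to 74.1 CPM in LN PBS for dendritic cells, with Clec9a at 0 in all LN PBS libraries. Their part in the DT differences of the members and of the pathway genes was not tested.

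Crem averaged 74.3 ± 13.6 CPM in LN DT and 45.8 ± 19.2 CPM in LN PBS (SD, n = 4). The difference was 0.70 ± 0.31 on the log2 scale (SE), with a 95% interval of 0.01 to 1.38 and an edgeR adjusted p of 0.397. LN PBS library 1, at 73.3 CPM, lay among the LN DT values. In lung Crem averaged 885 ± 95.8 CPM with DT and 1280 ± 518 CPM with PBS, a difference of -0.53 ± 0.31 (edgeR adjusted p = 0.439). The spread in lung PBS was wide, and both of its lower libraries lay within or below the lung DT range. The DT effect in lung minus that in LN was -1.23 ± 0.44 for Crem, with a 95% interval of -2.19 to -0.27. Its unadjusted p was 0.0126 in the edgeR fit, and its Benjamini-Hochberg adjusted p was 0.9999.

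Sik1 averaged 3.38 ± 1.64 CPM in LN DT and 1.74 ± 0.917 CPM in LN PBS (SD, n = 4), a log2 difference of 0.95 ± 0.49 (SE; edgeR adjusted p = 0.465). In lung it averaged 118 ± 46.2 CPM with DT and 88.3 ± 22.2 CPM with PBS, a log2 difference of 0.42 ± 0.43 (edgeR adjusted p = 0.671). The groups overlapped in both tissues. Once the share of mitochondrial counts entered the fit, the differences were -0.033 in LN and -0.48 in lung. That share did not overlap between lung DT and lung PBS, so this fit separates it poorly from DT in lung. At 1.74 CPM in LN PBS, the Sik1 counts allow only a coarse comparison: the 95% interval in LN runs from -0.12 to 2.01.

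Per1 gave log2 differences of -0.50 ± 0.59 in LN (SE; edgeR adjusted p = 0.785) and 0.86 ± 0.59 in lung (adjusted p = 0.516). In lung, 3 of 4 DT libraries were above every PBS library and the library numbered 1 was below all of them. Without lung DT replicate 1 the lung difference was 1.18 (adjusted p = 0.165), and without both DT libraries numbered 1 it was 1.17 (adjusted p = 0.0525), which does not pass. In that reduced set Per1 and Pde4b did not overlap between lung DT and lung PBS, 2 of 6 members against 9.02% of all tested genes, and in LN 0 of 6 were higher without overlap against 7.53%.

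Among the phosphodiesterases, Pde4b averaged 490 ± 95.5 CPM in lung DT and 365 ± 24.5 CPM in lung PBS (SD, n = 4). All 4 lung DT libraries, from 419 CPM up, were above all 4 lung PBS libraries, at most 384 CPM. Pde4b was the 1 member of 6 without overlap there, where 3.35% of all tested genes were higher without overlap. The log2 difference was 0.42 ± 0.22 (SE), with a 95% interval of -0.06 to 0.91, and the edgeR adjusted p was 0.388. In LN, where 0 members and 5.05% of genes were higher without overlap, Pde4b differed by -0.12 ± 0.22 (adjusted p = 0.873). Pde4d differed by 0.32 ± 0.54 in LN (adjusted p = 0.862) and by -0.22 ± 0.53 in lung (adjusted p = 0.875). Pde3b differed by 0.47 ± 0.31 in LN (adjusted p = 0.584) and by 0.21 ± 0.31 in lung (adjusted p = 0.784). Without both DT libraries numbered 1 the Pde3b differences were 0.11 in LN and -0.080 in lung.

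The effect of DT did not pass a test of difference between the tissues for any member, with an adjusted p of 0.9999 for each in edgeR. In that comparison 0.00717% of all tested genes passed, and 1 of 6 members, Crem, against 4.2% of genes had an unadjusted p under 0.05. The differences, lung minus LN, were 1.36 ± 0.84 for Per1, 0.55 ± 0.32 for Pde4b, -0.26 ± 0.43 for Pde3b, -0.52 ± 0.64 for Sik1 and -0.54 ± 0.76 for Pde4d (log2, SE).

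**Figure D3:**
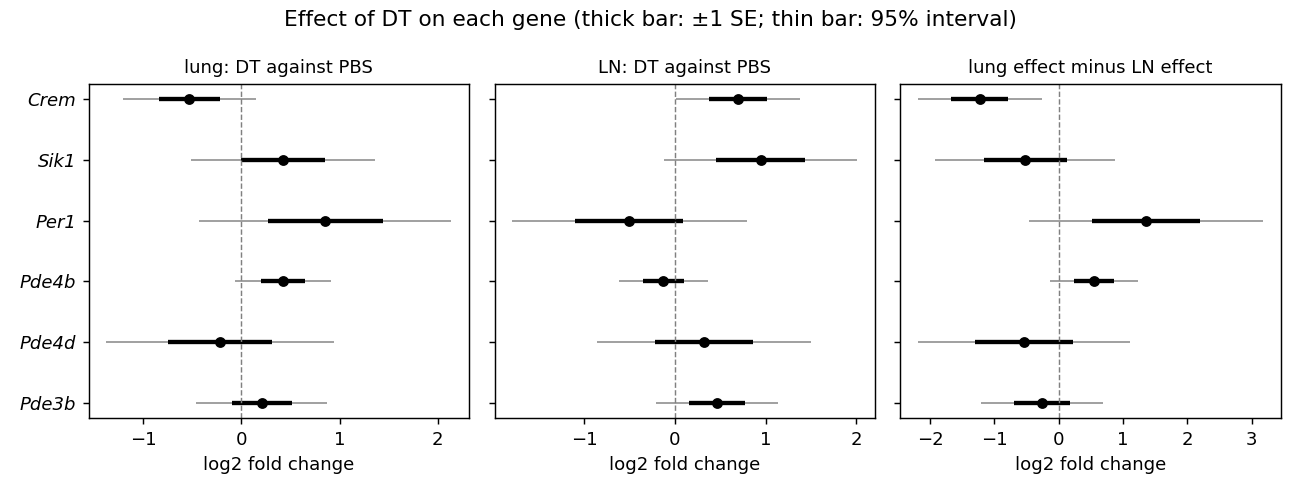
Log2 fold change of DT against PBS for each member in lung and in LN, and the lung effect minus the LN effect; points are estimates, thick bars ±1 SE and thin bars 95% intervals. The intervals of Crem in LN (0.01 to 1.38) and of its difference between tissues (-2.19 to -0.27) exclude 0 before adjustment over all genes.

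The rest of the pathway was taken from 8 lists of 92 genes without the members, of which 71 were tested. In PBS mice 11 were higher and 0 lower in lung than in LN (edgeR, adjusted p under 0.05), 15.5% of the 71 against 3.61% of all tested genes (2.7% higher and 0.904% lower). In DT mice 11 were higher and 1 lower, 16.9% against 6.75% (3.97% higher and 2.78% lower). The median log2 difference was 0.35 in DT mice and 0.34 in PBS mice, beside -0.04 and -0.01 over all tested genes. Of the higher genes, 10 in each comparison belonged to the list of CREB targets. The lists were chosen with earlier results of these data known, so these shares are no independent test of the pathway.

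None of 7 G protein subunits and adenylyl cyclases passed, nor of 9 A-kinase anchoring proteins, 8 other phosphodiesterases, 7 CREB factors and coactivators, or 7 genes of the SIK and class IIa deacetylase list, in lung against LN of DT or PBS mice. In PBS mice, Gnas, the stimulatory G protein subunit, differed by 1.32 ± 0.71 on the log2 scale (edgeR adjusted p = 0.372). Its level was low, at most 16.1 CPM in any library. Adcy5, an adenylyl cyclase of at most 1.55 CPM in any group mean, differed by -4.13 ± 1.87 (adjusted p = 0.277). Creb1, which encodes CREB itself, was at 124 ± 11.3 CPM in lung PBS and 89.5 ± 5.21 CPM in LN PBS (SD, n = 4; adjusted p = 0.261). Crtc3, a CREB coactivator, differed by -0.69 ± 0.30 (adjusted p = 0.248). Pde8a (1.85 ± 0.89, adjusted p = 0.306) and Pde7a (0.60 ± 0.30, adjusted p = 0.337), other cAMP phosphodiesterases, did not pass. Nor did the anchoring proteins Akap5 (1.33 ± 0.71, adjusted p = 0.377) and Akap12 (1.42 ± 1.11, adjusted p = 0.599), the deacetylase Hdac4 (-0.51 ± 0.25, adjusted p = 0.317) or Stk11, the kinase that activates SIKs (0.75 ± 0.42, adjusted p = 0.405).

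Of 10 genes for protein kinase A, its inhibitors and EPAC, 0 passed in PBS mice and 1 was lower in lung in DT mice. Rapgef4, which encodes the cAMP-activated exchange factor EPAC2, had 0, 0, 2.35 and 0 CPM in lung DT and 18.2, 37.6, 42.8 and 1.21 CPM in LN DT. LN DT library 4 lay below the highest lung DT library, so the groups overlapped. The log2 difference was -5.38 ± 1.46 (SE; edgeR adjusted p = 0.0334). The call was lost without LN DT replicate 2 (adjusted p = 0.0852), LN DT replicate 3 (0.0946), lung DT replicate 2 (0.0678) or lung DT replicate 4 (0.0602).

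Of the 12 other CREB targets tested, 10 were higher in lung in DT mice and 10 in PBS mice, with a median log2 difference of 4.50 and 4.18. Nr4a2, a nuclear receptor of the immediate early class, averaged 1601 ± 1002 CPM in lung DT and 20.0 ± 16.1 CPM in LN DT, and 1389 ± 271 CPM in lung PBS and 12.9 ± 4.30 CPM in LN PBS (SD, n = 4). The log2 differences were 6.33 ± 0.59 and 6.75 ± 0.60. Its relatives Nr4a1 (5.06 ± 0.48 in DT mice, 5.27 ± 0.49 in PBS mice) and Nr4a3 (4.52 ± 0.46 and 3.70 ± 0.44) were also higher in lung, passing in both. Rgs2, a brake on G protein signalling, was higher in lung than in LN by 4.48 ± 0.41 in DT mice and 4.42 ± 0.41 in PBS mice. For Dusp1, a phosphatase of MAP kinases, these differences were 5.54 ± 0.59 and 6.60 ± 0.62. Per2, a clock repressor, and Ppargc1a, a coactivator of mitochondrial genes, did not pass in either.

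These targets overlapped with genes known to respond to tissue dissociation. Of the 12, 6 were also in a list of 21 dissociation and immediate early genes, of which 18 were higher in lung in DT mice and 18 in PBS mice, with medians of 2.84 and 2.45. In that list the transcription factor gene Fos differed by 7.30 ± 0.88 in PBS mice, Atf3 by 5.95 ± 0.84 in DT mice, and the growth-restraining gene Btg2 by 2.10 ± 0.27 in DT mice and 1.95 ± 0.27 in PBS mice. Jund, at most 17.2 CPM in any library, Hsph1 and Socs3 did not pass in either. Among the 6 CREB targets outside that list, a split made after the values were seen, 4 were higher in DT mice and 4 in PBS mice. They include Nr4a2, of the immediate early class, its relative Nr4a3, and Rgs2. The split therefore does not set immediate early genes aside. The digestion of lung was described only for that tissue, so its part in these levels and in those of Crem and Sik1 cannot be told apart from that of the tissue.

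**Figure D4:**
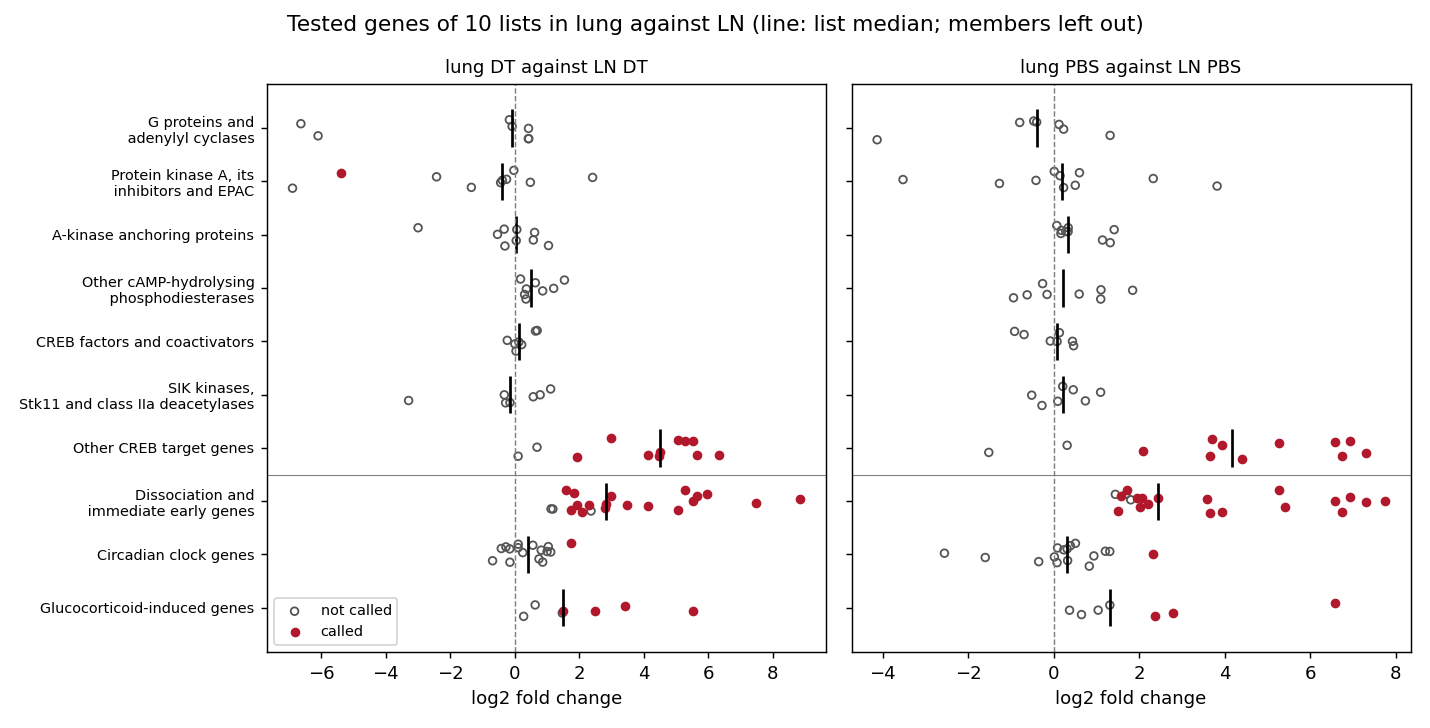
Log2 fold change of each tested gene of 10 lists for lung DT against LN DT (left) and lung PBS against LN PBS (right); filled points passed the edgeR test, vertical bars are list medians, and the 6 members are left out. Filled points gather in the CREB target list (10 of 12 in each panel) and in the dissociation list (18 of 21).

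Circadian clock and glucocorticoid-induced genes were counted too, beside 3.97% of all tested genes higher in lung in DT mice and 2.7% in PBS mice. Of 16 circadian clock genes 1 was higher in lung in each comparison, Bhlhe40, a repressor that many stimuli induce, with 596 ± 196 CPM in lung DT and 176 ± 82.8 CPM in LN DT, and 979 ± 368 CPM in lung PBS and 194 ± 42.0 CPM in LN PBS (SD, n = 4). Of 7 genes that glucocorticoids induce, 4 were higher in lung in DT mice and 3 in PBS mice. Sgk1, a kinase of ion transport, was higher in lung than in LN by 3.43 ± 0.30 in DT mice and 2.80 ± 0.29 in PBS mice. For Klf9, a transcription factor, these differences were 2.50 ± 0.47 and 2.36 ± 0.47. Dusp1 is also in this list. Tsc22d3, which encodes GILZ, differed by 1.51 ± 0.44 in DT mice (edgeR adjusted p = 0.0497) and by 1.32 ± 0.44 in PBS mice (adjusted p = 0.111). In PBS mice it passed with DESeq2 (adjusted p = 0.0399) and without LN PBS replicate 1, at 1.89 (edgeR adjusted p = 0.0279). Its call in DT mice held without LN PBS replicate 1 or 4, lung PBS replicate 1 or lung DT replicate 1 and was lost without any other library, with adjusted p up to 0.148.

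With DT against PBS, 0 of the 71 pathway genes passed in LN, in lung or in the difference between the tissues (edgeR). At an unadjusted p under 0.05 stood 8.45% in LN, 15.5% in lung and 8.45% in the difference, beside 11.8%, 14.7% and 4.2% of all tested genes. DESeq2 called 1 gene in LN, 1 in lung and 0 in the difference. The gene in LN was Pkib, an inhibitor of protein kinase A, at 4.55 (log2; DESeq2 adjusted p = 0.0107, edgeR adjusted p = 0.216). The gene in lung was Akap13, an anchoring protein, at 0.80 (DESeq2 adjusted p = 0.0204, edgeR adjusted p = 0.168). Without both DT libraries numbered 1, edgeR called Pde4a in lung at 1.39 (adjusted p = 0.0282). These 3 genes were named after their values were seen.

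Genes whose profile over the 16 libraries lay nearest to those of Crem and Sik1 were ranked among 8385 genes, by the root mean square difference between log2 CPM values centred on each gene's own mean. For Crem the nearest were Tnfaip3 at 0.56, Fosl2 at 0.62, Ppp1r15a at 0.66, Tgif1 at 0.78 and Rgs2 at 0.79, beside a median of 2.27 over all genes ranked. For Sik1 they were Cdkn1a at 0.68, Atf3 at 0.91, Rgs2 at 0.91, Fosl2 at 0.93 and Dusp1 at 1.01, beside a median of 2.79. Crem and Sik1 themselves lay 0.89 apart. Pde4b lay 1.27 from Crem, Pde4d 1.48, Per1 1.56 and Pde3b 1.67. Since all libraries share the division into lung and LN, a gene higher in lung by about as much as Crem tends to lie near it by this measure.

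**Figure D5:**
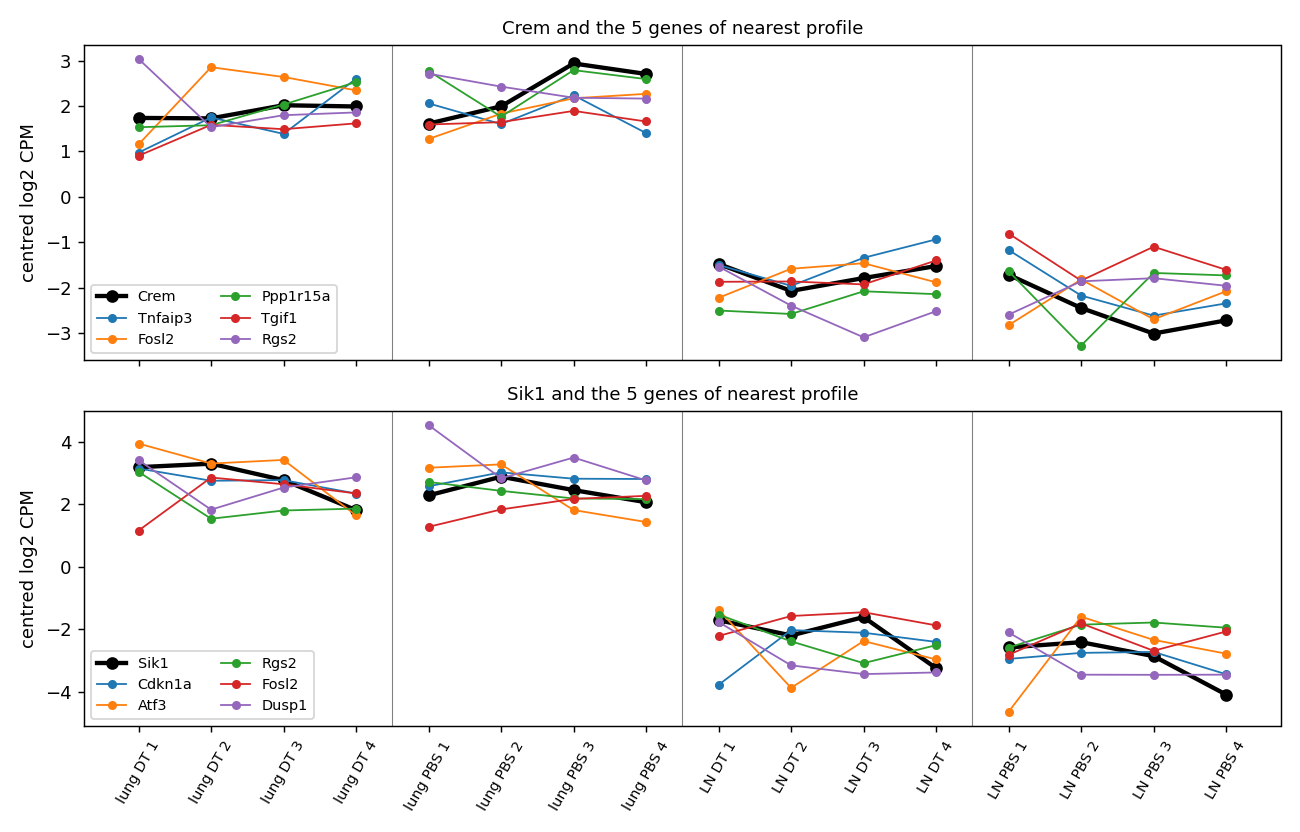
Log2 CPM centred on each gene's mean in the 16 libraries, for Crem (top) and Sik1 (bottom), in black, with the 5 genes of nearest profile. All lines lie above 0 in the 8 lung libraries and below 0 in the 8 LN libraries.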

How the data were processed

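Read counts per gene were deposited by the authors for 49671 genes and 16 libraries. Per the submitters' processing notes, HISAT2, HTSeq and GRCm38 were used; their versions were not given in the sources used here. No counts column was left out, and the p-values take each library as 1 animal, as the series' design text states biological replicates. The 6 members, the gene lists and the tests were chosen with earlier results of these data known.

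Genes kept by filterByExpr (minimum count 10, minimum total 15) numbered 13940. Counts were TMM-scaled and fitted in edgeR 4.0.16 (R 4.3.3; quasi-likelihood, robust) as 4 group means with 12 residual degrees of freedom. The 5 comparisons were DT against PBS in each tissue, the difference between these effects, and lung against LN under each treatment, all two-sided with Benjamini-Hochberg adjustment over all tested genes and a threshold of 0.05. Intervals use the t distribution. CPM values use TMM-scaled library sizes, and exon lengths are those of GENCODE M21 (GRCm38). Profiles used log2(CPM + 0.5) of genes with a mean of at least 10 CPM. The fit was tested on simulated data.

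Named genes are, per pathway list and comparison, up to 4 that passed with the smallest p, and in a list with none the 2 of smallest p in lung PBS against LN PBS; Tsc22d3 is given in both comparisons. The genes of the Gs-coupled receptor list are not reported here. Pde2a has 2 rows in the table, and the row that passed the filter was used. Summed marker levels of the lists not given above were, over all 16 libraries, 6.68 to 141 CPM for basophils and mast cells, 137 to 452 for group 2 innate lymphoid cells, 70.6 to 175 for endothelial cells and 0 to 203 for epithelial cells. Alternatives were median-ratio size factors, no filter, a mean of at least 5 CPM, DESeq2 1.42.0, a replicate block, leaving out each library or both DT libraries numbered 1, and the mitochondrial share as a covariate.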

Additional observations from a re-analysis of the deposited data

Results flagged for a closer look

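Pde3b in lung PBS had 1 library, replicate 2, far above the other 3: 171 CPM beside 105 to 114. Among summed marker levels, 1 library stood far above its group for T cells in lung DT (430 CPM, in the library numbered 1), macrophages and monocytes in lung PBS (2459), plasma cells in LN PBS (321) and epithelial cells in LN PBS (149). Of 68 groups of 4 libraries checked, 5 were picked out this way, and chance picks out about 1 in 20.

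For Crem every lung DT library was below the lung PBS mean and every LN DT library above the LN PBS mean, and for Pde4b both were the other way round. The DT effect in lung minus that in LN was -1.23 for Crem and 0.55 for Pde4b on the log2 scale, each with an edgeR adjusted p of 0.9999 for the difference.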

How the results depend on the processing

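Every member fold change was recomputed under 23 alternatives. No member passed the test of DT in either tissue or of the difference between tissues under any of them; the lowest adjusted p was 0.186 in LN, 0.0525 in lung and 0.489 for the difference. The lung against LN differences of the members kept their sign throughout, with Crem between 3.46 and 3.68 in DT mice and between 4.60 and 5.13 in PBS mice, and Sik1 between 4.84 and 5.40 and between 5.34 and 5.90. The direction of DT turned for Sik1 with the mitochondrial share as a covariate (-0.033 in LN, -0.48 in lung) and for Pde3b in lung with that covariate (-0.020) and without both DT libraries numbered 1 (-0.080). In lung the fit with that covariate separates the share poorly from DT. With 1 library left out at a time, Pde3b ran from -0.065 to 0.34 in lung and from -0.47 to 0.088 for the difference between tissues, and Pde4b from -0.23 to 0.061 in LN; the cause was not tested.

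The number of genes called over the whole table depended on the setting. In LN it was 9, and 23 with no filter, 323 with DESeq2, 24 without both DT libraries numbered 1 and 1 with the mitochondrial covariate. In lung it was 15, and 456 with DESeq2, 474 without both DT libraries numbered 1 and 1 with the covariate. For the difference between tissues it was 1, and 19 with DESeq2. For lung against LN in PBS mice it was 503, and 1179 with DESeq2 and 1362 without both DT libraries numbered 1; in DT mice it was 941, and 1733 with DESeq2. The 71 pathway genes gave 1 call in LN and 1 in lung with DESeq2, and 1 in lung without both DT libraries numbered 1, in place of 0. Their lung against LN calls stayed between 11 and 12 in PBS mice and between 11 and 17 in DT mice.

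With 1 library left out at a time the number of genes called ran from 0 to 122 in LN (0 without LN PBS replicate 3 or 4, 1 without LN PBS replicate 1, 5 without LN DT replicate 3, 122 without LN DT replicate 4, 55 without lung DT replicate 1 and 15 without lung DT replicate 4). It ran from 1 to 129 in lung (1 without lung PBS replicate 1 or 2, 5 and 6 without lung PBS replicates 3 and 4, 8 without LN PBS replicate 3 or 4 or LN DT replicate 2 or 3, 26 without LN DT replicate 1, and 44, 24 and 129 without lung DT replicates 1, 3 and 4). It ran from 0 to 3 for the difference between tissues, with 3 without lung DT replicate 3 and 0 without LN PBS replicate 2, 3 or 4, LN DT replicate 1 or 2, lung PBS replicate 3 or 4 or lung DT replicate 2 or 4. It ran from 268 to 992 for lung against LN in PBS mice (292, 300 and 268 without LN PBS replicates 1, 3 and 4, 316 without lung PBS replicate 2, 992 without lung DT replicate 1) and from 471 to 1554 in DT mice (532 and 471 without LN DT replicates 2 and 3, 1554 without lung DT replicate 1).

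Replicate numbers are shared by the groups, and nothing says that a number marks a mouse. The deviations of same-numbered libraries correlated between -0.31 and 0.41, above 0.1 in 8 of 24 pairs, and 7 of 16 libraries correlated best with their own number. Pairs of a DT with a PBS library cannot be 1 mouse. In order of replicate number, lung DT and LN DT correlated at 0.41, 0.19, 0.23 and 0.18. For lung PBS and LN PBS the values were -0.022, 0.19, -0.030 and -0.0012. Whether lung and LN of a number share a mouse was not tested, and a block that joins DT and PBS libraries cannot show it. With the replicate number as a block, the difference between tissues gave 0 genes called; the counts were 7 in LN and 13 in lung, and no call on a member changed. Depth limits the LN comparison of Sik1, at 1.21 to 4.81 CPM with DT and 0.452 to 2.54 CPM with PBS, and that of Pde4d, at 3.85 to 5.48 CPM with DT and 1.58 to 4.75 CPM with PBS.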

Other observations

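In the DT libraries numbered 1 the CREB targets did not shift together beside the rest of their groups, in genes picked after their values were seen. These libraries had the lowest TMM scaling factors, 0.840 in lung DT and 0.878 in LN DT. The lung DT library numbered 1 also had the fewest genes detected, 14032. Stk11, outside the CREB target list, had 19.5 CPM there beside 97.8, 118 and 65.8 CPM. The part of library quality in these values was not tested. In the lung DT library numbered 1, Nr4a2 had 3093 CPM beside 1008, 1277 and 1025 CPM in the other 3, and Rgs2 1257 CPM beside 444, 533 and 556 CPM. In the same library Junb, a subunit of the AP-1 factor, had 186 CPM beside 3382, 4122 and 3421 CPM, Nr4a1 had 329 CPM beside 932, 1263 and 810 CPM, and Per1 had 16.2 CPM beside 149 to 261 CPM. The clock gene Tef had 0.574 CPM there beside 44.3, 32.3 and 24.0 CPM.

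The LN DT library numbered 1 showed the same split at lower levels. Nr4a2 had 43.2 CPM beside 11.6, 7.10 and 18.2 CPM, and Rgs2 52.6 CPM beside 28.8, 17.6 and 26.4 CPM. Junb had 16.3 CPM beside 183, 194 and 237 CPM, Nr4a1 7.88 CPM beside 31.0, 27.8 and 33.0 CPM, and Per1 5.48 CPM beside 19.3 to 36.3 CPM. Crem did not stand out in either library, at 805 CPM in lung and 86.5 CPM in LN.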
